A study of Homo sapiens with 22 samples.

Results

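Tubastatin A is a small molecule reported to inhibit lysine deacetylase KDAC6 (HDAC6) in preference to other deacetylases. The present comparison sets 3 libraries of wild-type (WT) HT1080 cells grown with 1 µM Tubastatin A for 2 days against 4 libraries of untreated WT cells, 7 of the 22 libraries in the series. Libraries were assigned to groups by their labels, and neither group carries an edited gene. HT1080 is an established human fibrosarcoma line, called epithelial-like by the study. The controls are labelled as having no treatment, and no solvent-treated library is described. A further 3 libraries of WT cells given 5 µM PCI-34051, reported to inhibit KDAC8, for the same 2 days serve below for a direct comparison of the inhibitors as dosed. The remaining libraries are of lines with an inactivating point mutation in KDAC6 (KDAC6H216A and KDAC6H611A) or KDAC8 (KDAC8H143A). Ribosomal RNA was depleted before paired-end sequencing.

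KDAC6 is a mainly cytoplasmic deacetylase with tandem catalytic domains and a ubiquitin-binding zinc finger. It is known for removing acetyl groups from α-tubulin, cortactin and HSP90, and for carrying ubiquitinated proteins along microtubules to the aggresome. Deacetylases of the nucleus, such as KDAC1, KDAC2 and KDAC3, act on histones within corepressor complexes. Acetylation was not measured in these libraries, which report transcript levels only, and a lower level of a transcript per library cannot be told apart from fewer cells that make it.

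The libraries of both groups carried mesenchymal marker transcripts and few epithelial ones, but they differed in depth and composition. WT libraries held 5248953 to 8998474 counts in all and Tubastatin A libraries 28394225 to 29862665. Mitochondrial rRNA took between 20.8% and 23.9% of the counts in WT libraries and between 0.000564% and 0.00287% with Tubastatin A. Nuclear protein-coding genes took 61.6% ± 2.05 (SD, n = 4) in WT cells and 84.6% ± 1.10 (SD, n = 3) with Tubastatin A, mitochondrial protein-coding genes 1.19% ± 0.0603 and 4.30% ± 0.447, and all other genes 15.2% ± 1.12 and 11.1% ± 0.648. Each of these 4 shares gave p = 0.0571 by a two-sided exact permutation test, the smallest that 3 libraries against 4 allow. Treatment therefore cannot be told apart from rRNA depletion and depth in this design. Of 10 mesenchymal markers 9 reached 1 CPM in at least 1 library (CPM, the count relative to library size after TMM scaling in edgeR), with VIM between 3279 and 4007 CPM over all 7 libraries, while THY1 stayed under 1 CPM. Of the markers of other cell types, 1 of 7 epithelial, 1 of 6 blood, 1 of 4 endothelial and 2 of 6 neural genes reached 1 CPM in any library, each type summing to under 7 CPM, and EPCAM, CDH1 and PTPRC were at 0 counts in all 4 WT libraries and at 3 counts or fewer with Tubastatin A.

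Most of the genes measured moved. Of 12526 nuclear protein-coding genes tested, 4185 were higher (33.4%) and 3345 lower (26.7%) with Tubastatin A in quasi-likelihood tests in edgeR, at a Benjamini-Hochberg adjusted p below 0.01. Changes were mostly small, and 981 genes were at least 2-fold higher and 503 at least 2-fold lower. The median log2 fold change of all these genes was 0.05. Scaling each library to its total count alone raised that median by 0.35 and turned the split into 7379 higher and 1200 lower, so group medians below are best read against the median of all genes, and signs that turn under that scaling are given. KDAC6H216A replicate 1 and KDAC6H611A replicate 4 also had little mitochondrial rRNA (0.195% and 0.173%, against 13.1% to 38.0% in the other libraries of those lines). In that KDAC6H216A library 509 of all 12526 genes were at least 2-fold higher, and 277 at least 2-fold lower, than in the rest of its line. Of the 981 genes 15 were higher and 37 lower there, and of the 503 genes 154 were higher and 15 lower, a difference in share that was not tested. In the KDAC6H611A library 41 of all genes were higher and 49 lower by that measure, with 10 and 3 of the 981 genes and 12 and 6 of the 503. A fit of all 6 groups, which includes these libraries in its estimate of spread, called 2839 genes higher and 1034 lower. Genes described below whose call was lost in that fit, with the direction kept, were HDAC1, HDAC2, HDAC7, HDAC9, SIRT2, HSP90AA1, TUBA4A, TUBB3, TUBB6, PRDX2, CTTN, CCND1, HSPA8, ATF4, XBP1, IRF7, AXL, HK2, LDHB, MMP1, ITGA6, LAMB3, RPA1, TK1, SLBP, NEU1, ATP6V0D1, SREBF2, VIM, EIF3CL, ENSG00000267059, FGF1 and KRTAP2-3, the last pair in their change from WT.

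**Figure D1:**
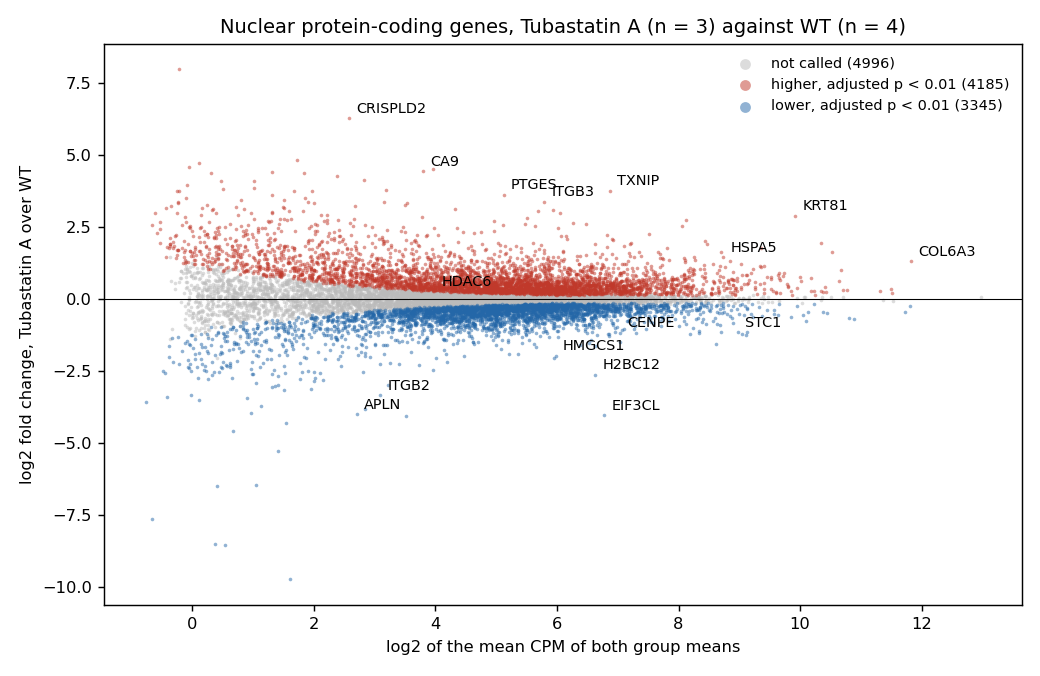
Fitted log2 fold change of 12526 nuclear protein-coding genes (vertical axis, Tubastatin A over WT) against the log2 of their mean CPM (horizontal axis); each point is a gene. Coloured genes passed an adjusted p of 0.01, 4185 higher (red) and 3345 lower (blue), and the largest fold changes lie among genes at low CPM.

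HDAC6, which encodes KDAC6 (chrX:48801377-48824982 on GRCh38, plus strand), was at 10.2, 16.7, 16.01 and 13.9 CPM in the WT libraries and at 17.3, 17.7 and 17.5 CPM with Tubastatin A. All treated libraries lay above the WT libraries, but the log2 fold change of 0.26 (SE 0.10) was not past the threshold (adjusted p = 0.0328 by edgeR's test). The level of HDAC8, the PCI-34051 target, averaged 12.8 ± 0.822 CPM (SD, n = 4) without treatment against 12.1 ± 0.778 CPM (SD, n = 3), and its log2 fold change was -0.08 (SE 0.10). Of 17 deacetylase genes tested, 4 were higher (23.5% against 33.4% of all genes) and 3 lower (17.6% against 26.7%). HDAC4, a class IIa deacetylase that binds MEF2 factors, was at 14.05, 15.99, 16.9 and 16.4 CPM in WT cells and at 33.8, 31.8 and 31.2 CPM with Tubastatin A. Its groups stood well apart, with a log2 fold change of 1.01 (SE 0.08) and an adjusted p of 6.89e-10 by edgeR's test. The class I genes HDAC1 (76.7 to 90.2 CPM, log2 fold change 0.23, group means) and HDAC2 (101 to 123 CPM, log2 fold change 0.29) rose slightly, as did the mitochondrial desuccinylase SIRT5 (14.6 to 18.6 CPM, log2 fold change 0.37). SIRT2, the other tubulin deacetylase, fell from 20.5 to 14.7 CPM, HDAC7 from 68.03 to 51.1 CPM and HDAC9 from 51.9 to 43.1 CPM, although SIRT2 and HDAC7 were not called and HDAC9 turned to a log2 fold change of 0.09 when libraries were scaled to their total count. HDAC3, HDAC5, HDAC10, HDAC11, SIRT1, SIRT3, SIRT6 and SIRT7 did not pass, with log2 fold changes between -0.25 (SIRT3) and 0.14 (HDAC3), and SIRT4 was filtered out for low counts.

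Genes of the known substrates of KDAC6 moved little. The α-tubulin gene TUBA1B was at 956, 1173, 1175 and 1090.3 CPM in WT cells and at 991, 987 and 1006 CPM with Tubastatin A, ranges that overlapped (log2 fold change -0.14 (SE 0.06), turning to 0.16 with correction for GC content and length). TUBA1A and TUBA1C had log2 fold changes of 0.03 and -0.03, and ATAT1, the α-tubulin acetyltransferase, of 0.13, none past the threshold. HSP90AA1, the inducible cytosolic HSP90, rose from 767 ± 27.1 CPM (SD, n = 4) to 1019 ± 10.97 CPM (SD, n = 3), whereas HSP90AB1 had a log2 fold change of 0.06 and was not called. CTTN, which encodes cortactin, fell from 252 to 202 CPM (log2 fold change -0.32, 0.03 with scaling to the total count), and the peroxiredoxin gene PRDX2 from 40.5 to 29.7 CPM (-0.46), while PRDX1 (0.04) was not called. Of 17 tubulin genes tested, 4 were higher (23.5% against 33.4% of all genes) and 5 lower (29.4% against 26.7%). Among them TUBB6 (-0.59) and TUBB3 (-0.59) were lower and TUBA4A (0.32) higher. The largest rise among the tubulin genes was in TUBB4A, a tubulin best known from brain, which had 2 counts or fewer in every WT library and was at 1.43, 1.37 and 1.84 CPM with Tubastatin A, at least 3.39-fold higher against a floor of 3 counts per library. TUBB4A is counted among the 4 rises, but it could pass the filter for low counts only through the treated libraries, which fixed its direction. Of the 34 autophagy and aggresome genes tested, 20 rose (58.8% against 33.4% of all genes) and 6 fell (17.6% against 26.7%). The largest rises were in genes of the ATG8 family, whose products coat autophagosomes. These were GABARAPL1 (5.50 to 20.7 CPM, log2 fold change 1.88), MAP1LC3B (32.5 to 67.3 CPM, log2 fold change 1.04) and GABARAP (52.5 to 86.2 CPM, log2 fold change 0.71).

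Transcripts known to respond to broad deacetylase inhibition did not all move the same way. Of 21 genes listed as induced by such inhibitors, 13 were higher (61.9% against 33.4% of all genes) and 4 lower (19.0% against 26.7%). Their median log2 fold change was 0.61, and 0.96 with scaling to the total count. TXNIP, a thioredoxin inhibitor that also restrains glucose uptake, was at 16.6, 14.9, 18.4 and 14.5 CPM in WT cells and at 221, 219 and 213 CPM with Tubastatin A. No WT library came near a treated one, at a 13.5-fold difference, a log2 fold change of 3.76 (SE 0.07) with an adjusted p of 1.27e-18 by edgeR's test. MT1X, a metallothionein that binds zinc, rose from 6.01 to 19.6 CPM, and SYT11 from 15.8 to 46.6 CPM. The histone genes H2BC12 (171 to 27.6 CPM, log2 fold change -2.63) and H2BC21 (181 to 86.4 CPM, log2 fold change -1.07) and the neuronal tubulin TUBB3 (119 to 79.3 CPM, log2 fold change -0.59) fell. Of 10 genes listed as repressed by such inhibitors, 7 fell (70.0%) and 1 rose (10.0%), the latter being CCND1 (cyclin D1, 683 to 826 CPM, log2 fold change 0.27). The median of those 10 was -0.26, and 0.09 with scaling to the total count.

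The 12 largest rises among genes at 5 CPM or more, called and without overlap of the groups, were in CRISPLD2, MARCKS, DHRS3, CA9, SOX21, ATOH8, CLSTN2, ADAMTS2, TXNIP, CDK15, KCTD16 and PTGES. CRISPLD2, a secreted glucocorticoid-responsive protein, was at 2 counts or fewer in every WT library and at 11.2, 11.4 and 12.6 CPM with Tubastatin A, at least 25.8-fold higher against a floor of 3 counts per library. MARCKS, an actin-linking substrate of protein kinase C, did not exceed 3 counts in a WT library and was by the same measure at least 13.98-fold higher. CRISPLD2, MARCKS, ATOH8, CLSTN2, CDK15 and KCTD16 could pass the filter for low counts only through the treated libraries, which fixed their direction. CA9, a membrane carbonic anhydrase that is a standard readout of hypoxia-inducible factor (chr9:35673928-35681159, plus strand), was at 0.648, 0.615, 1.74 and 1.74 CPM in WT cells and at 27.8, 25.3 and 27.1 CPM with Tubastatin A. The groups were far apart, at a log2 fold change of 4.44 (SE 0.17) and an adjusted p of 4.45e-14 by edgeR's test. CA9 could not pass the filter for low counts without the treated libraries, which favoured a rise. DHRS3, a retinal reductase, rose from 1.31 ± 0.498 CPM (SD, n = 4) to 29.8 ± 1.83 CPM (SD, n = 3). PTGES, the terminal enzyme of prostaglandin E synthesis, was at 4.11, 5.29, 5.34 and 5.79 CPM in WT cells and at 63.03, 64.5 and 65.8 CPM with Tubastatin A (log2 fold change 3.62 (SE 0.08)). PTGS2, the inducible cyclooxygenase that supplies its substrate, rose as well, from 2.09 ± 1.14 CPM (SD, n = 4) to 20.5 ± 1.54 CPM (SD, n = 3). Among genes at 100 CPM or more the largest rises were in TXNIP, ITGB3, TGFB2, ITGA11 and KRT81. KRT81, a hair keratin, rose from 229 ± 16.5 CPM (SD, n = 4) to 1703 ± 47.7 CPM (SD, n = 3), though keratin genes of near-identical sequence can share reads and KRT86 overlaps it on the other strand.

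Several of the largest falls were in genes whose reads are hard to place. GAGE2E belongs to a family of near-identical copies, EIF3CL is a near copy of EIF3C, and FMC1-LUC7L2 is a readthrough gene. Genes without a symbol were ENSG00000144785, ENSG00000272617 and ENSG00000267059. They overlap other genes on the same strand, CS and CNPY2, COG8 and PDF, and MBD3 and UQCR11 in that order. Counts of genes with near copies are uncertain, since reads can be divided between the copies. EIF3CL was at 207 CPM in WT cells and 12.7 CPM with Tubastatin A, and among 3 libraries of the KDAC6H611A line it ran from 0 to 254 CPM. The other 6 of the 12 largest falls were in APLN, FRMPD1, ITGB2, FAM221A, CD180 and MYH7B. APLN, the secreted ligand of the apelin receptor, was at 13.2, 11.9, 11.8 and 12.3 CPM in WT cells and at 0.744, 0.792 and 0.725 CPM with Tubastatin A, with no overlap and a log2 fold change of -4.01 (SE 0.18). Without the WT libraries, the filter for low counts would have dropped APLN, FRMPD1, FAM221A, GAGE2E, FMC1-LUC7L2 and the genes without a symbol. That filter favoured their fall. ITGB2, the β2 integrin chain of leukocytes, was at 15.1, 15.9, 15.1 and 15.8 CPM in WT cells and at 1.61, 1.40 and 1.57 CPM with Tubastatin A (log2 fold change -3.34 (SE 0.14), edgeR adjusted p = 2.37e-13). CD180, a Toll-like receptor homologue, fell from 16.5 to 2.04 CPM. Beside these transcripts of blood cells, the defining blood markers PTPRC, CD3E and HBB were at 0 counts in all WT libraries and at 3 or fewer in treated ones. LYZ, another blood marker, was between 2.39 and 3.94 CPM in WT and between 0.602 and 1.05 CPM in treated libraries. From 100 CPM upward the largest falls included EIF3CL, H2BC12, HMGCS1 and ESM1, and ESM1, a proteoglycan of endothelial cells and tumours, went from 149 ± 7.23 CPM (SD, n = 4) to 48.6 ± 3.05 CPM (SD, n = 3).

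**Figure D2:**
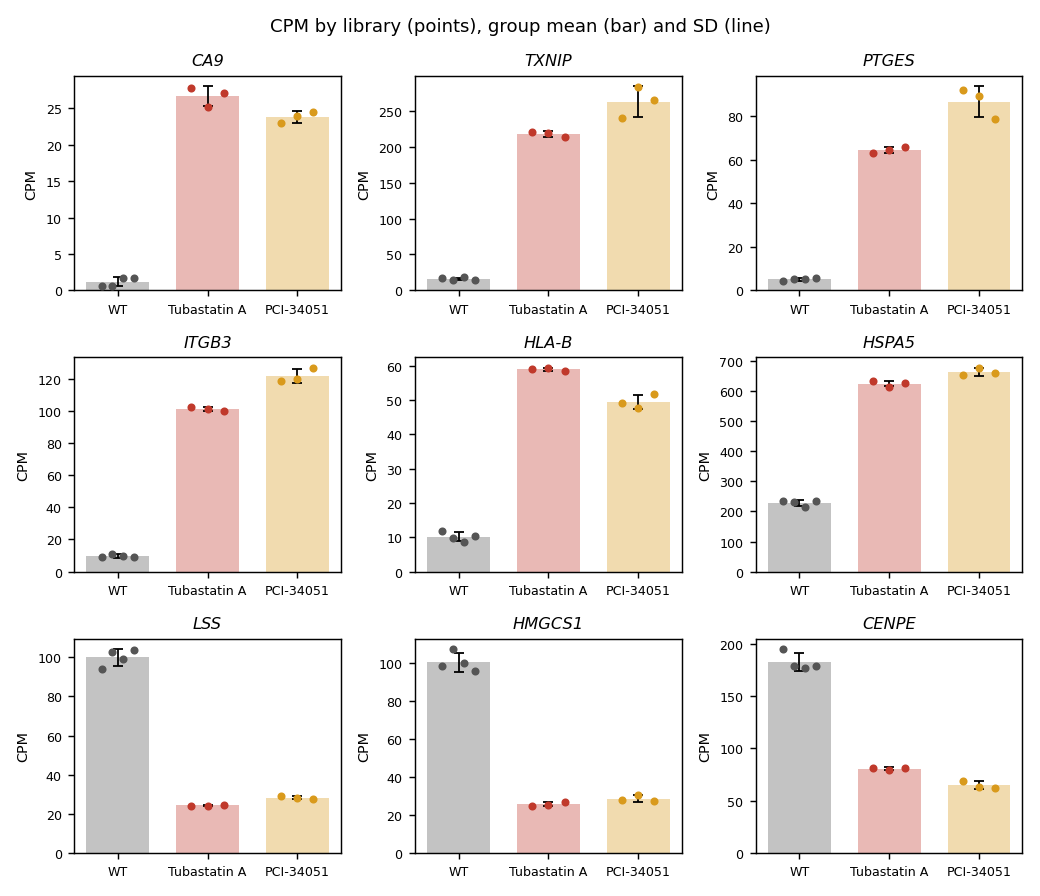
CPM of 9 genes in each library (points) of WT (n = 4), Tubastatin A (n = 3) and PCI-34051 (n = 3), with the group mean (bar) and SD (line). CA9, TXNIP, PTGES, ITGB3, HLA-B and HSPA5 were higher and LSS, HMGCS1 and CENPE lower in every Tubastatin A library than in every WT library.

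Genes of cholesterol synthesis fell almost throughout. The mevalonate pathway turns acetyl-CoA into farnesyl diphosphate, squalene and then sterols, and its genes are switched on together by SREBP-2 when sterols are scarce. Of 33 genes of sterol and fatty acid synthesis tested, 29 fell and 3 rose, against 26.7% lower and 33.4% higher among all genes, and 16 fell at least 2-fold. The median log2 fold change was -0.996 (-0.64 with scaling to the total count, -1.07 with correction for GC content and length). HMGCS1, which makes HMG-CoA (chr5:43287470-43313512, minus strand), was at 98.3, 107, 99.8 and 95.97 CPM in WT cells and at 24.7, 25.2 and 26.8 CPM with Tubastatin A. It fell 3.93-fold, with a log2 fold change of -1.98 (SE 0.05) and an adjusted p of 1.47e-16 by edgeR's test. Further down the pathway fell MVK (27.3 to 8.04 CPM, log2 fold change -1.77), MVD (35.3 to 8.98 CPM, log2 fold change -1.99), IDI1 (64.6 to 17.5 CPM, log2 fold change -1.90), FDPS (125 to 54.5 CPM, log2 fold change -1.20) and SQLE (74.3 to 30.9 CPM, log2 fold change -1.28). LSS, which closes the sterol rings, was at 94.00, 103, 99.1 and 104 CPM in WT cells and at 24.2, 24.02 and 24.6 CPM with Tubastatin A (log2 fold change -2.05 (SE 0.05)). INSIG1, a sterol sensor, fell (83.3 to 33.5 CPM, log2 fold change -1.32), and SREBF2, which encodes SREBP-2 itself, fell only from 184 to 149.5 CPM and was not called with scaling to the total count, at a log2 fold change of 0.05. Of the fatty acid genes FASN (767 to 351 CPM, log2 fold change -1.13) and SCD (583 to 199 CPM, log2 fold change -1.55) fell. The exceptions were PMVK (4.06 to 8.78 CPM, log2 fold change 1.15), ELOVL6 (32.4 to 55.2 CPM, log2 fold change 0.76) and ACSS2 (24.4 to 31.5 CPM, log2 fold change 0.38), which rose, and SC5D (-0.22, adjusted p = 0.0318 by edgeR's test), which did not pass.

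**Figure D3:**
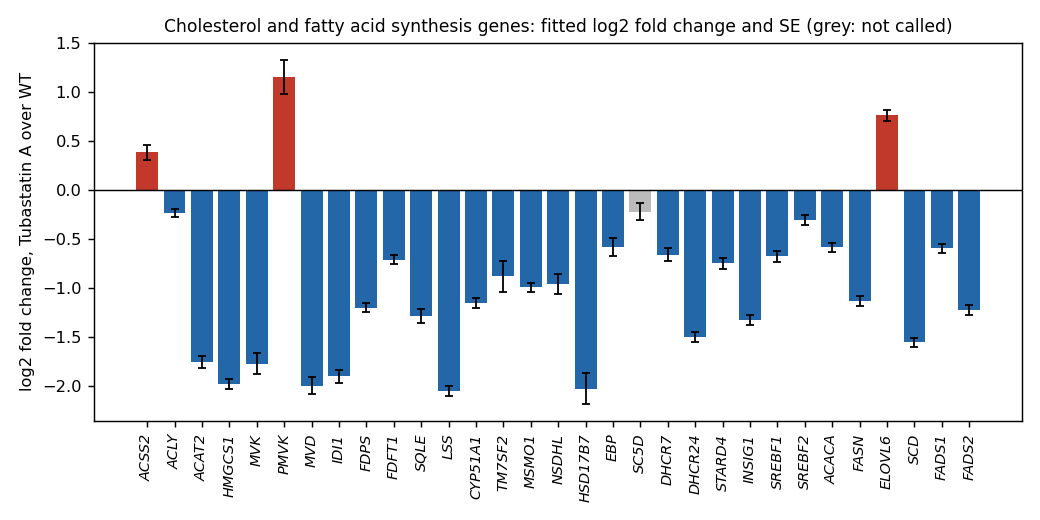
Fitted log2 fold change (bars, Tubastatin A over WT) and its SE (lines) of 31 of the 33 genes of cholesterol and fatty acid synthesis, ordered roughly along the pathway; blue was lower, red higher and grey not called. Most bars lie below 0, with PMVK, ELOVL6 and ACSS2 above it.

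Genes of cell division fell together, by smaller amounts. Of 55 mitosis genes tested, 44 were lower (80.0% against 26.7% of all genes) and the rest were not called, at a median log2 fold change of -0.44 (-0.08 with scaling to the total count). ESPL1, the separase that cuts cohesin at anaphase, was at 58.3, 64.4, 65.1 and 66.01 CPM in WT cells and at 19.8, 23.3 and 23.6 CPM with Tubastatin A (log2 fold change -1.52 (SE 0.07)). CENPE, a kinetochore kinesin, was at 195, 179, 177 and 179 CPM in WT cells and at 81.1, 79.4 and 81.6 CPM with Tubastatin A, no treated library reaching the lowest WT one (log2 fold change -1.17 (SE 0.05), edgeR adjusted p = 1.81e-13). Of 51 genes of DNA replication, 40 fell (78.4%) and 3 rose (5.9% against 33.4% of all genes), at a median of -0.37 (-0.01 with scaling to the total count). Among them ORC1, a subunit of the origin recognition complex (25.8 to 10.97 CPM, log2 fold change -1.24), the histone chaperone CHAF1A (63.7 to 31.1 CPM, log2 fold change -1.03) and the transcription factor E2F2 (7.05 to 2.71 CPM, log2 fold change -1.36) fell most, while RPA1, TK1 and SLBP rose by 0.30, 0.27 and 0.22 on the log2 scale. Of 47 DNA repair genes, 32 fell (68.1%) and 4 rose (8.5%), at a median of -0.39 (-0.04 with scaling to the total count), with XRCC2 (-1.07), FANCA (-1.02) and RECQL4 (-0.93) lowest. Of 39 replication-dependent histone genes, 23 fell (59.0%) and 6 rose (15.4%), but their median of -0.39 became 0.20 after correction for GC content and length, and several have near-identical copies. The median of 77 mitochondrial ribosomal protein genes was -0.24 (38 lower or 49.4%, 7 higher or 9.1%) and turned to 0.11 with scaling to the total count. That of 40 chromatin remodeller genes turned too (23 lower or 57.5%, 3 higher or 7.5%, median -0.21 against 0.14).

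**Figure D4:**
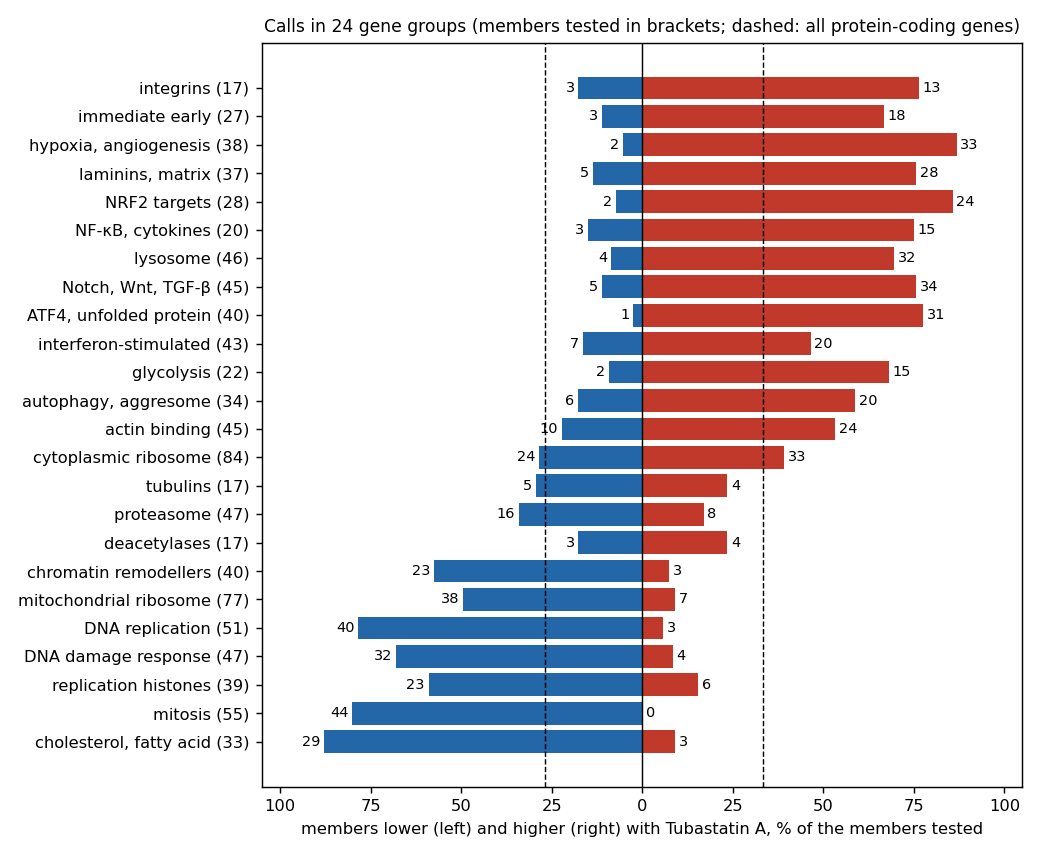
Share of the members tested that were higher (red, right) or lower (blue, left) with Tubastatin A in 24 gene groups, ordered by median log2 fold change, with the number of genes at each bar end and the shares of all protein-coding genes as dashed lines (33.4% and 26.7%). Cholesterol, mitosis and replication genes lie at the bottom, and integrins, immediate early genes and hypoxia genes at the top.

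Adhesion and matrix genes were among those that rose. Integrins are paired receptors that tie the cytoskeleton to the matrix. Of 17 integrin genes tested, 13 rose (76.5% against 33.4% of all genes) and 3 fell (17.6% against 26.7%), at a median log2 fold change of 1.02. ITGB3, the β3 chain of the vitronectin receptor, was at 9.08, 11.1, 9.68 and 8.83 CPM in WT cells and at 103, 101 and 99.6 CPM with Tubastatin A. The treated libraries were 10.3-fold higher (log2 fold change 3.37 (SE 0.06), edgeR adjusted p = 2.89e-18), and an unnamed gene, ENSG00000259753, overlaps ITGB3 on its strand. The collagen-binding chain ITGA11 (15.2 to 117 CPM, log2 fold change 2.97) and the hemidesmosome chain ITGB4 (3.40 to 24.02 CPM, log2 fold change 2.85) rose too, and ITGA6, the usual partner of ITGB4, fell (726 to 469.5 CPM, log2 fold change -0.63). Of 37 genes of laminins and other matrix proteins, 28 rose (75.7%) and 5 fell (13.5%), at a median of 0.89. LTBP3, which holds latent TGF-β in the matrix, rose from 72.99 ± 4.34 CPM (SD, n = 4) to 485 ± 21.2 CPM (SD, n = 3), and its relative LTBP2 fell from 171 to 77.3 CPM. The proteoglycan VCAN rose as well (40.6 to 187 CPM, log2 fold change 2.21), and the epithelial laminin chain LAMB3 fell (955 to 646 CPM, log2 fold change -0.57). Collagen genes were called about as often as all genes, 8 of 26 higher (30.8% against 33.4%) and 7 lower (26.9% against 26.7%), with 2 rising and 4 falling at least 2-fold. COL6A3, the most abundant of those that rose by CPM, went from 2104 to 5186 CPM, and COL27A1 fell (137 to 47.8 CPM, log2 fold change -1.52).

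Proteolysis at the cell surface was also represented. Of 29 matrix protease genes and their inhibitors, 17 rose (58.6% against 33.4% of all genes) and 6 fell (20.7% against 26.7%). PLAT, the tissue plasminogen activator, rose (137 to 554 CPM, log2 fold change 2.02), as did the gelatinase MMP2 (41.7 to 156 CPM, log2 fold change 1.90). The interstitial collagenase MMP1 (58.6 to 33.9 CPM, log2 fold change -0.79) and stromelysin MMP3 (5.70 to 1.72 CPM, log2 fold change -1.72) fell. Of 45 actin-binding genes, 24 rose (53.3%) and 10 fell (22.2%), with the contractile genes MYL9 (14.5 to 85.01 CPM, log2 fold change 2.54) and TAGLN (6.10 to 34.6 CPM, log2 fold change 2.47) rising most. Of 45 genes of the Notch, Wnt and TGF-β pathways, 34 rose (75.6%) and 5 fell (11.1%), at a median of 0.49. The ligand TGFB2 was at 12.5, 15.7, 11.2 and 12.01 CPM in WT cells and at 115, 106 and 109 CPM with Tubastatin A (log2 fold change 3.09 (SE 0.07)), and the inhibitors of differentiation ID1 (24.8 to 153 CPM, log2 fold change 2.60) and ID2 (1.22 to 7.05 CPM, log2 fold change 2.56), targets of BMP signalling, rose too. Of 32 Hippo pathway genes, 19 rose (59.4%), CCN1 among them (314 to 727 CPM, log2 fold change 1.21), and 6 fell (18.8%), AXL among them (1299 to 947 CPM, log2 fold change -0.46).

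Stress and metabolic programmes formed a further group of rises. Of 38 hypoxia and angiogenesis genes, 33 rose (86.8% against 33.4% of all genes) and 2 fell (5.3% against 26.7%), at a median of 0.90. Of the 38, 1 gene was at 3 counts or fewer in every WT library, so only the treated libraries could carry it through the filter. Beside CA9, the related carbonic anhydrase CA12 rose (8.99 to 44.98 CPM, log2 fold change 2.33), while STC1, a secreted glycoprotein that hypoxia also induces, fell from 693 ± 25.9 CPM (SD, n = 4) to 310.4 ± 4.10 CPM (SD, n = 3). Of 22 glycolysis genes 15 rose (68.2%) and 2 fell (9.1%), ALDOC (12.95 to 43.1 CPM, log2 fold change 1.71), ENO2 (38.2 to 95.9 CPM, log2 fold change 1.34) and PDK1, which keeps pyruvate out of the mitochondrion (49.2 to 94.6 CPM, log2 fold change 0.95), rising most and HK2 (108 to 81.4 CPM, log2 fold change -0.41) and LDHB (472 to 378 CPM, log2 fold change -0.32) falling, the latter at 0.03 and neither called with scaling to the total count. Of 28 targets of the antioxidant factor NRF2, 24 rose (85.7%) and 2 fell (7.1%), at a median of 0.80. The export pump ABCC3 (10.2 to 51.9 CPM, log2 fold change 2.35) and the aldo-keto reductases AKR1C3 (1.67 to 7.78 CPM, log2 fold change 2.28) and AKR1C1 (1.41 to 6.69 CPM, log2 fold change 2.24), which are close in sequence and can share reads, were among the largest rises.

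Of 40 genes of the ATF4 and unfolded protein responses, 31 rose (77.5% against 33.4% of all genes) and 1 fell (2.5% against 26.7%), at a median of 0.46. The single fall was in ATF4 itself (394 to 286 CPM, log2 fold change -0.46), whose product is controlled largely at translation. HSPA5, the endoplasmic reticulum chaperone BiP (chr9:125234853-125241382, minus strand), was at 233, 233, 215 and 234 CPM in WT cells and at 633, 615 and 628 CPM with Tubastatin A. All 3 treated libraries exceeded all 4 WT libraries, with a log2 fold change of 1.45 (SE 0.05) and an adjusted p of 2.38e-15 by edgeR's test. STC2 (99.4 to 308 CPM, log2 fold change 1.62), the cystine transporter gene SLC7A11 (106 to 309.7 CPM, log2 fold change 1.55) and CEBPB (34.1 to 95.9 CPM, log2 fold change 1.47) rose most. Among cytosolic chaperones HSPA8, the constitutive HSC70, fell (2336 to 1447 CPM, log2 fold change -0.69). Of 46 lysosomal genes, 32 rose (69.6%) and 4 fell (8.7%), at a median of 0.59. The rises were led by the sterol carrier NPC2 (24.9 to 66.95 CPM, log2 fold change 1.44), the acid α-glucosidase GAA (27.8 to 73.9 CPM, log2 fold change 1.39) and the fucosidase FUCA1 (3.82 to 10.00 CPM, log2 fold change 1.36), and CLCN7 (79.5 to 49.4 CPM, log2 fold change -0.70) fell. All 5 calls among 6 metallothionein and zinc transport genes tested were rises (83.3% against 33.4% of all genes).

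Immune and early response genes rose in part. HLA-B, an MHC class I gene whose product presents peptides to T cells, was at 11.9, 9.71, 8.69 and 10.3 CPM in WT cells and at 59.04, 59.4 and 58.5 CPM with Tubastatin A (log2 fold change 2.57 (SE 0.08)). The groups were well apart, and HLA-C, a related gene that shares sequence with it, rose from 17.6 to 62.98 CPM. Of the 43 interferon-stimulated genes tested, 20 rose (46.5% against 33.4% of all genes) and 7 fell (16.3% against 26.7%). Of the 43, 1 was at 3 counts or fewer in every WT library and could pass the filter only through the treated ones. The antiviral genes ISG20 (29.97 to 6.70 CPM, log2 fold change -2.18), IRF7 (7.62 to 2.83 CPM, log2 fold change -1.44) and RIGI (16.8 to 10.7 CPM, log2 fold change -0.66) were lower. Of 20 NF-κB and cytokine genes, 15 rose (75.0%), with the macrophage growth factor CSF1 (50.5 to 176 CPM, log2 fold change 1.80) and IL1A (3.18 to 9.14 CPM, log2 fold change 1.54) behind PTGS2, and 3 fell (15.0%), of which CCL5 (7.40 to 1.22 CPM, log2 fold change -2.58) fell most. Of 27 immediate early genes, 18 rose (66.7%) and 3 fell (11.1%), at a median of 0.93, with EGR1 (1.63 to 11.1 CPM, log2 fold change 2.76), NR4A1 (2.70 to 8.95 CPM, log2 fold change 1.72) and DUSP1 (16.01 to 50.9 CPM, log2 fold change 1.67) leading among genes at 5 CPM or more. The 29 p53 targets were called about as often as all genes, 11 higher (37.9% against 33.4%) and 7 lower (24.1% against 26.7%). Among them GDF15, a stress cytokine shared with ATF4, rose from 150.2 ± 20.6 CPM (SD, n = 4) to 561 ± 24.1 CPM (SD, n = 3). Only 15 of 35 neuronal genes had enough counts to be tested. Of those 15, 12 rose (80.0%), MAP2 (1.17 to 8.09 CPM, log2 fold change 2.76) and VGF (2.31 to 13.3 CPM, log2 fold change 2.50) among them, and 2 fell (13.3%). Of 26 HOX genes 14 rose (53.8%) and 1 fell (3.8%).

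Groups near the median of all genes included the housekeeping machines. Of 84 cytoplasmic ribosomal protein genes 33 rose (39.3% against 33.4% of all genes) and 24 fell (28.6% against 26.7%). The extremes, RPS16 (2.55), RPL28 (1.63), RPS27 (-1.29) and RPL21 (-1.23), belong to a family with many processed pseudogenes, which can share reads. Of 47 proteasome genes 8 rose (17.0%) and 16 fell (34.0%, median -0.05), and of 411 ZNF genes 80 rose (19.5%) and 104 fell (25.3%, median -0.02). Medians of both turned positive with scaling to the total count (0.30 and 0.33), and that of the proteasome also with correction for GC content and length (0.05).

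Promoters of 4 genes are shown because their groups moved and carry well-known DNA elements. RefSeq promoters on GRCh38.p14 were matched by symbol for 10221 of the tested genes, and the 250 bases before the first listed start were searched on both strands. The sequences below are the last 150 bases before the start, read 5′ to 3′ along the gene, with the element in capitals. ESPL1 (chr12:53268149-53268298, plus strand) holds TTTGAA, the cell cycle gene homology region. LSS (chr21:46228775-46228924, minus strand) holds CCAAT on the opposite strand, the NF-Y box. HSPA5 (chr9:125241344-125241493, minus strand) holds the endoplasmic reticulum stress response element, CCAAT and CCACG set 9 bases apart. GAA (chr17:80101431-80101580, plus strand) holds TCACGTG, the core of the element bound by TFEB and its relatives, on both strands.
ESPL1: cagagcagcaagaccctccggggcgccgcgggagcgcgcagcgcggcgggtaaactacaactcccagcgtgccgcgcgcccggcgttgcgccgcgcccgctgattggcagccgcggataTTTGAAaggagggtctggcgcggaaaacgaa
LSS: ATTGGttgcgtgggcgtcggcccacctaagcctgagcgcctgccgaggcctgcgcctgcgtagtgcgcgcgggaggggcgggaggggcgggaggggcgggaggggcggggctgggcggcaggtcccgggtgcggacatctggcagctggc
HSPA5: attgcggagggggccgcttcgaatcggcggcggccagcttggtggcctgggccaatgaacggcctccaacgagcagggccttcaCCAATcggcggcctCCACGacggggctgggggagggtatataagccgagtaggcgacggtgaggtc
GAA: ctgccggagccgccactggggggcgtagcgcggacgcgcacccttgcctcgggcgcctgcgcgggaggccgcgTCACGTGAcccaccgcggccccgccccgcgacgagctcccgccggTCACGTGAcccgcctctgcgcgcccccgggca

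TTTGAA was found before 24 of 49 mitosis genes (48.98%) and before 8.57% of all tested genes. Of the mitosis genes that hold it, 19 were called lower, and of the 25 without it, 20 were. TTTNNCGC, which E2F factors bind, stood before 18 of 43 replication genes and 9.18% of all. Of those 18, 15 were called lower, and of the 25 without it, 20 were. CCAAT stood before 18 of 26 sterol and fatty acid genes (69.2%) and 35.5% of all, and CACNCCAC, a form of the sterol regulatory element, before 3 of the same genes and 4.53% of all. Of the 18 sterol and fatty acid genes with CCAAT, 16 were called lower, and of the 8 without it, 6 were. CCAAT was not particular to that group, as it also stood before 33 of 49 mitosis genes (67.3%). The stress element was found before 5 of 34 ATF4 and unfolded protein response genes, HSPA5, HSP90B1, CALR, XBP1 and CRELD2, and before 14 of all 10221. Of those 5, 4 were called higher and CRELD2 was not called (log2 fold change -0.18). Of the 29 without the element, 24 were called higher. TCACGTG stood before 8 of 29 lysosomal genes and 5.28% of all, 4 of those 8 being called higher and CLCN7, NEU1 and ATP6V0D1 lower, against 17 of the 21 without it. These matches describe letters in a window and show no binding.

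Set directly against PCI-34051 at 5 µM, Tubastatin A at 1 µM left few genes apart. The doses differ, so this compares the treatments as given, and both sets of libraries had little mitochondrial rRNA (0.000722% to 0.00541% with PCI-34051) and similar depth (24315766 to 28676518 counts). Of 13715 protein-coding genes tested, 620 were higher (4.52%) and 327 lower (2.38%) with Tubastatin A in the same kind of edgeR test and threshold, and 22 were at least 2-fold higher and 2 at least 2-fold lower. With scaling to the total count the split was 417 higher and 490 lower, with upper-quartile scaling 504 and 428, so the direction of small differences depends on the scaling. KIF5C, a neuronal kinesin heavy chain that hauls cargo along microtubules, was at 10.8, 13.8, 11.8 and 10.3 CPM in WT, 35.5, 38.98 and 38.8 CPM with Tubastatin A and 13.6, 12.5 and 12.6 CPM with PCI-34051. The treated libraries were well apart, with a log2 difference of 1.55 (SE 0.07) from PCI-34051 (edgeR adjusted p = 1.51e-09), the PCI-34051 libraries lying within the WT range. The next largest were FGF1, a fibroblast growth factor (log2 difference 1.35 (SE 0.14)), the hair protein gene KRTAP2-3 (1.29 (SE 0.16)) and the basement membrane gene FRAS1 (1.03 (SE 0.11)), each above PCI-34051.

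In the other direction PTGS2 was at 19.4, 19.8 and 22.2 CPM with Tubastatin A and at 43.8, 38.3 and 39.2 CPM with PCI-34051, a log2 difference of -0.98 (SE 0.07) (edgeR adjusted p = 3.71e-07). CAPS (-0.93 (SE 0.12)) and EID3 (-0.85 (SE 0.11)), both of which share their strand with another gene, and SERPINB2 (-0.81 (SE 0.14)) were also lower than with PCI-34051. The group counts that follow stand against 4.52% higher and 2.38% lower among all genes of this comparison. Among the groups, 12 of 29 NRF2 targets were lower with Tubastatin A than with PCI-34051 and the rest were not called (12 lower with scaling to the total count). Higher with Tubastatin A were 21 of 55 mitosis genes (14 with scaling to the total count), 8 of 20 tubulin genes (7) and 17 of 46 actin-binding genes (11). So were 22 of 42 replication-dependent histone genes (16), several of which have near-identical copies. TUBA1B was at 799, 767 and 744 CPM with PCI-34051, a log2 difference of 0.37 (SE 0.04) (edgeR adjusted p = 1.39e-05). Of 33 sterol and fatty acid genes 3 were higher and 3 lower (0 and 5 with scaling to the total count). HMGCS1, at 27.99, 30.5 and 27.1 CPM with PCI-34051, was not called (log2 difference -0.16 (SE 0.06), edgeR adjusted p = 0.097). HDAC6 differed by 0.03 (SE 0.07) on that scale and was not called.

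**Figure D5:**
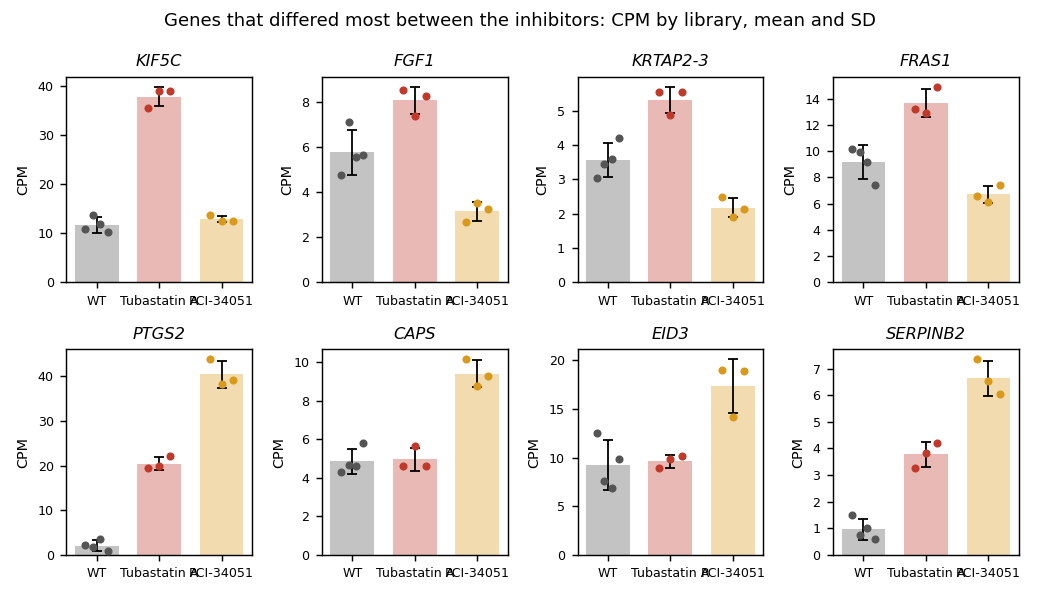
CPM by library (points), group mean (bar) and SD (line) of the 4 genes with the largest differences in each direction between Tubastatin A (n = 3, 1 µM) and PCI-34051 (n = 3, 5 µM), with WT (n = 4). KIF5C lay within the WT range with PCI-34051 and above it with Tubastatin A, and PTGS2 was highest with PCI-34051.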

How the data were processed

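RNA from HT1080 cells was depleted of ribosomal RNA and sequenced from both ends. According to the submitters' processing notes, Trimmomatic 0.39, Bowtie2 2.4.5, RSEM 1.3.3 and DESeq2 1.38.2 were used, with alignment to GRCh38, and the annotation release is not given in the sources used here. The authors deposited a single table of RSEM estimated counts per gene for 22 libraries, of which 11.5% of values were not whole because reads shared by several genes were divided among them. Samples were grouped by their labels, which matched every column.

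Counts were rounded. Genes were kept with edgeR 4.0.16 (filterByExpr) in R 4.3.3, scaled by TMM and tested with glmQLFTest on the 7 libraries alone, without covariates, and p-values were adjusted over all 15246 genes tested. CPM used the effective library sizes of that fit; values with PCI-34051 were brought to the same scale through the Tubastatin A libraries. Positions came from GENCODE release 44, and 56558 of 60675 gene identifiers matched it. Named genes were called (adjusted p below 0.01), reached 5 CPM in the higher group and did not overlap between groups. Genes that passed the filter only through the group where they were higher had little room to be called the other way. The 12 largest rises and falls, the 5 largest at 100 CPM or more, the 3 largest each way in each of 53 gene lists and the 4 largest differences each way from PCI-34051 were taken, with all deacetylases and KDAC6 substrates; further genes of the lists were named after their values were seen. The libraries compared and the lists were chosen with earlier results of these data known. The study describes the libraries of a group as biological replicates, without saying in the sources used here how their cultures were separated, so p-values measure the spread between libraries. Alternatives were DESeq2 1.42.0, other scalings and filters, thinning, GC content and length, a replicate block, all 6 groups, and each library left out. Scripts were tested on simulated data. Shares were compared by exact permutation tests. The counts limit precision: 3 counts corresponded to 0.369 to 0.648 CPM in WT and 0.089 to 0.091 CPM in treated libraries, counting error only. A few genes are not reported here.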

Additional observations from a re-analysis of the deposited data

Results flagged for a closer look

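Among 169 sets of 4 WT values tested, 12 had a library set apart from the other 3 by Dixon's criterion, and chance alone sets apart about 1 in 20. The highest WT library stood apart at 24.4 CPM for FMC1-LUC7L2, 1.73 CPM for EGR1, 56.3 CPM for CSF1, 8.43 CPM for CCL5, 113 CPM for HK2, 195 CPM for CENPE, 34.5 CPM for NEU1 and 465 CPM for HSP90B1. The lowest stood apart at 64.9 CPM for HDAC7, 229 CPM for TUBB6, 215 CPM for HSPA5 and 16.0 CPM for SIRT7. For SIRT7 the other 3 WT libraries lay between 21.2 and 21.4 CPM. The groups of 3 libraries were too small for this criterion.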

How the results depend on the processing

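The number of protein-coding genes changed with Tubastatin A was 7530. It stayed within 1.5 times that under these settings (DESeq2 size factors with its own test, upper-quartile scaling, scaling to the total count, no filter, a minimum of 10 counts per library, protein-coding genes only, counts thinned to one depth, the replicate block, GC content and length, both together, and an adjusted p of 0.05), from 6098 to 8724, and between 6953 and 7545 with 1 library left out. A fit of all 6 groups gave 3873 (73.3% of them higher, against 55.6%) and a 2-fold minimum 1484. Between the inhibitors the count was 947, with 1633 without a filter, 2183 at an adjusted p of 0.05, 24 with a 2-fold minimum and 375 to 1032 with 1 library left out. The lowest of these, 389, 455 and 375, came without Tubastatin A replicate 1, 2 and 3, and leaving out PCI-34051 replicate 1 gave 570; the causes were not tested beyond the smaller number of libraries. Replicate numbers did not pair the samples (correlations of same-numbered libraries between -0.05 and 0.03), and the replicate block gave 6634 and 692 genes. Of 145 genes called in the text, 33 lost the call in the fit of all groups, 8 with scaling to the total count and 3 under the replicate block.

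With scaling to the total count, log2 fold changes turned to 0.085 for HDAC9, 0.029 for CTTN, 0.031 for LDHB, 0.12 for VIM, 0.049 for SREBF2, 0.25 for SIRT1, 0.23 for HDAC10, 0.31 for HDAC5, 0.21 for TUBA1B and 0.32 for TUBA1C. Group medians turned to 0.27 for deacetylases, 0.14 for acetyltransferases, 0.14 for chromatin remodellers, 0.27 for histone methylation, 0.088 for genes repressed by deacetylase inhibitors, 0.11 for mitochondrial ribosomal proteins, 0.30 for the proteasome, 0.26 for the respiratory chain, 0.30 for aminoacyl-tRNA synthetases, 0.24 for splicing, 0.23 for nuclear import, 0.14 for kinesins and 0.14 for cohesin. With GC content and length corrected, TUBA1B turned to 0.16, the proteasome to 0.046, the respiratory chain to 0.077 and replication histones to 0.20. Depth limits genes under 3 counts, or 0.369 to 0.648 CPM, in WT libraries.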
